A study of Homo sapiens with 2 samples.

Results

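The miR-99/100 and miR-125 families are taken here as the arms of miR-99a, miR-99b, miR-100, miR-125a and miR-125b. They were chosen by name, and 9 of the 10 arms named have values, among 2218 mature miRNAs in all. miR-125b-1-3p was not analysed here. The measurements come from small RNA sequencing of K562 cells, a human erythroleukaemia line, with 1 library from cells transduced with a GFP lentivirus and 1 from cells transduced with a lentivirus that overexpresses QKI5. QKI5 is the isoform of Quaking, an RNA-binding protein, that is found mainly in the nucleus. Both groups were transduced and grown in the same medium, and they differ in the lentivirus that the labels name. With 1 library per group no difference below has a replicate check, no test of the treatment was possible, and intervals cover counting error only.

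A mature miRNA guides Argonaute proteins to messenger RNAs, and the bases called the seed, counted from the 5′ end, choose most of the targets. miR-99 and miR-100 belong to an ancient family that is known to repress mTOR and other growth regulators. miR-125 is the vertebrate relative of the nematode lin-4, and miR-125b in particular is known to block differentiation and to drive leukaemia when it is overproduced in blood precursors. Members of both families sit together with a let-7 hairpin in paralogous clusters, from which 1 long transcript can give all of the hairpins.

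The mature arms fall into groups by seed. They are shown 5′ to 3′ with bases 2 to 8 in capitals, since these letters decide which arms count as 1 family below. The sequences come from RefSeq on GRCh38.p14, which matched 10 of 10 arms by name.
hsa-miR-99a-5p: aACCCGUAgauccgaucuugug
hsa-miR-99b-5p: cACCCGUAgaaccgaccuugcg
hsa-miR-100-5p: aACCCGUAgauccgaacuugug
hsa-miR-125a-5p: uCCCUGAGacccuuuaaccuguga
hsa-miR-125b-5p: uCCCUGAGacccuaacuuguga
hsa-miR-99a-3p: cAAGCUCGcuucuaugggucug
hsa-miR-99b-3p: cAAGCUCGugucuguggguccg
hsa-miR-125a-3p: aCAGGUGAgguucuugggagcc
hsa-miR-125b-2-3p: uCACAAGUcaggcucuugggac
hsa-miR-125b-1-3p: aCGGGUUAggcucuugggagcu

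The 5p arms of miR-99a, miR-99b and miR-100 share the seed ACCCGUA, and those of miR-125a and miR-125b share CCCUGAG. The 3p arms of miR-99a and miR-99b share AAGCUCG, while the 3p arms of the miR-125 hairpins each have a seed of their own. Outside the seed the relatives are close. Counted from 1 at the 5′ end and with the base of miR-99a-5p first, miR-100-5p differs from it by U16A alone, and miR-99b-5p differs by A1C, U11A, U16C and U21C. The 3p arms of miR-99a and miR-99b also differ at 4 positions. miR-125a-5p (24 bases) and miR-125b-5p (22 bases) have the same first 13 bases and lie 3 edits apart. The sources used here do not give the mismatches allowed or the handling of reads that match several miRNAs. Reads of miR-100-5p, which lies 1 base from a relative with far more reads, are therefore uncertain.

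The chromosome 19 cluster is the compact one. Its hairpins are shown with both mature arms in capitals, because their arms hold most of the reads described below.
MIR99B: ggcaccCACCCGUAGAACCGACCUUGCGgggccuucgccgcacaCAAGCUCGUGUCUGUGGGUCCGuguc
MIRLET7E: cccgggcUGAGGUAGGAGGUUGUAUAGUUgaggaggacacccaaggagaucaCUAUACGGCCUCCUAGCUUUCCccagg
MIR125A: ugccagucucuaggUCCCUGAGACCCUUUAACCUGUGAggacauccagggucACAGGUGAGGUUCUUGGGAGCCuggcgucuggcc

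On GRCh38.p14, MIR99B lies at chr19:51692612-51692681, MIRLET7E at chr19:51692786-51692864 and MIR125A at chr19:51693254-51693339, all on the plus strand. Gaps of 104 and 389 bases separate them. GENCODE release 29 places all of them in an intron of 1 transcript of SPACA6, a gene of sperm and egg fusion, and an antisense transcript, SPACA6P-AS, covers MIRLET7E and MIR125A with an exon. The other clusters are long. On chromosome 21, MIR99A (chr21:16539089-16539169, plus strand) lies 658 bases from MIRLET7C, and MIR125B2 follows after 50325 bases, all inside introns of the long non-coding host gene MIR99AHG. On chromosome 11, MIR100 (chr11:122152229-122152308, minus strand), MIRLET7A2 and MIR125B1 (chr11:122099757-122099844, minus strand) lie within introns of MIR100HG, with gaps of 5635 and 46677 bases. miR-125b-5p is identical from MIR125B1 and MIR125B2, and the source of its reads cannot be told apart.

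Levels are in RPM, reads per 1000000 reads of the library total. The GFP library rested on 23262340 reads and the QKI5 library on 6553945, a depth ratio of 3.55, and a count of 0, taken to allow up to 3 reads, allows up to 0.129 RPM (GFP) and 0.458 RPM (QKI5). The exact Poisson 95% limits used for the levels below are slightly wider for a count of 0, at 0.159 RPM for hsa-miR-124-3p with GFP and 0.563 RPM for hsa-let-7c-3p with QKI5. The label K562 was checked against markers of blood cells. All 3 red cell markers (miR-451a, miR-144-3p, miR-486-5p) were present, with summed levels of 3875 RPM (GFP) and 3089 RPM (QKI5). Singly they did not move alike. With QKI5, miR-451a (2798 and 2187 RPM) and miR-144-3p (548 and 293 RPM) were lower and miR-486-5p (528 and 608 RPM) higher. Both markers of blood cells in general (miR-142-3p, miR-223-3p) summed to 18330 and 20267 RPM. Of 5 stromal markers, a set that matters here because stroma is also rich in miR-99a, miR-100 and miR-125b, miR-145-5p was at 2588 and 2572 RPM while the other 4 stayed at or below 2.59 RPM and miR-214-3p had 1 and 0 reads. The 3 epithelial markers summed to 64.3 and 72.6 RPM. Of these, miR-141-3p was lower with QKI5 (38.2 and 27.8 RPM), and miR-200c-3p (25.2 and 41.7 RPM) and miR-205-5p (0.903 and 3.20 RPM) were higher. The liver marker miR-122-5p and the neuronal miR-124-3p had at most 1 read in either library, and the neuronal miR-9-5p was at 378 and 332 RPM. The part of other cell types in the results was not tested, and in bulk libraries fewer cells of a type and less RNA per cell cannot be told apart.

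Almost all reads of both families came from chromosome 19. The 4 arms of miR-99b and miR-125a made up 94.3% of the 92659 member reads with GFP (exact binomial 95% interval 94.2% to 94.5%) and 96.9% of 37915 with QKI5 (96.7% to 97.0%). All 9 arms together took 0.601% of the reads on listed miRNAs with GFP and 0.972% with QKI5. Listed miRNAs held 66.3% of the library total with GFP and 59.5% with QKI5, so these shares are on another scale than levels in RPM. miR-125a-5p led in both libraries, followed by miR-99b-5p. With GFP it had 2.08 times the reads of miR-99b-5p, and miR-99b-5p had 8.21 times those of the next arm, miR-99a-5p. With QKI5 these steps were 1.95 and 20.0 times. Below them stood miR-99a-5p and miR-125b-5p, then the 3p arms of miR-99b and miR-125a, then miR-99a-3p, miR-100-5p and miR-125b-2-3p. Each arm was separated from the next by its Poisson interval with GFP. With QKI5 the intervals of miR-99a-5p and miR-125b-5p overlapped, as did those of miR-125a-3p and miR-99b-3p, of miR-99a-3p and miR-100-5p, and of miR-100-5p and miR-125b-2-3p. The order of the 3p arms of miR-99b and miR-125a was opposite in the libraries.

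**Figure D1:**
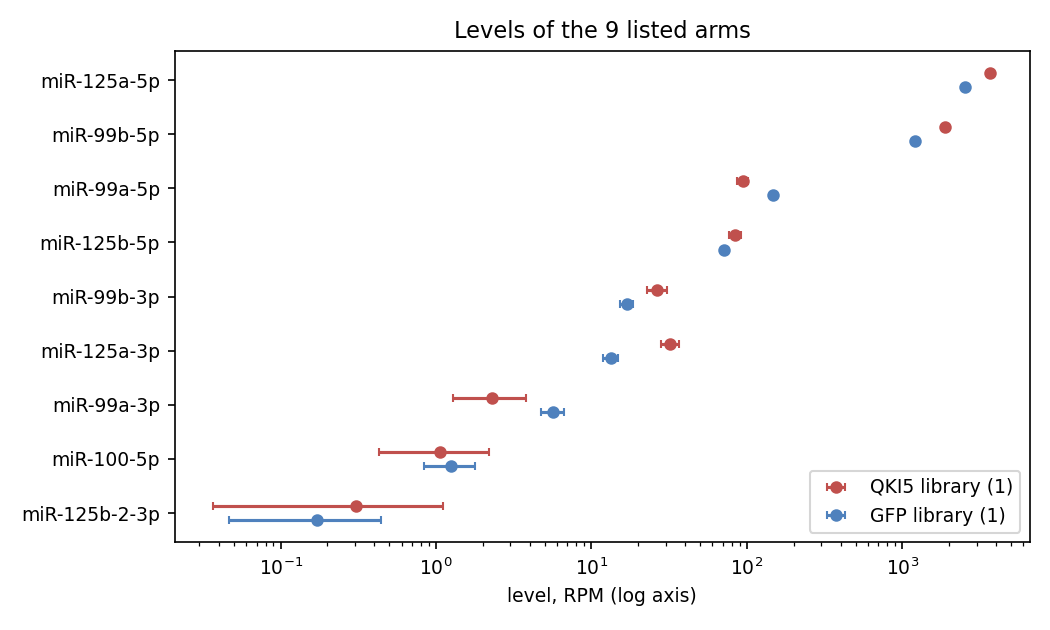
Level of each of the 9 arms in RPM on a log axis, in the GFP library (blue) and the QKI5 library (red), 1 library each. Bars are exact Poisson 95% intervals. The 5p arms of miR-125a and miR-99b stand highest in both libraries, and miR-99a is the hairpin whose arms both lie further left with QKI5.

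miR-125a-5p (hsa-miR-125a-5p), known for its part in blood stem cell survival, was at 2518 RPM with GFP (58586 reads) and 3664 RPM with QKI5 (24012 reads). It was the arm with the most reads, and its Poisson intervals did not overlap. The plain ratio of QKI5 over GFP was 1.45 (exact conditional binomial 95% interval 1.43 to 1.48). Its log2 ratio was 0.54, which stayed above 0 under 7 of 8 other settings and was -0.04 with the trimmed mean of M values taken over all listed miRNAs.

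miR-99b-5p (hsa-miR-99b-5p) was at 1209 RPM with GFP (28118 reads) and 1881 RPM with QKI5 (12330 reads). The QKI5 library was again the higher one, by a ratio of 1.56 (1.52 to 1.59). The log2 ratio of 0.64 kept its sign under all 8 other settings, but was 0.06 with that trimmed mean and 0.20 after a linear GC trend was removed. miR-99b-5p, at 63.6% G and C, is richer in them than miR-125a-5p at 50%.

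The 3p arms of these hairpins, which are released from the opposite strand of the duplex and are usually degraded, were much lower. miR-125a-3p was at 13.3 RPM with GFP (310 reads) and 32.04 RPM with QKI5 (210 reads), a ratio of 2.40 (2.01 to 2.87). It stood just above the 2-fold line, at a log2 ratio of 1.26. That value was 0.96 under quantile normalization, 0.94 with the GC trend removed and 0.68 with the trimmed mean over all listed miRNAs. miR-99b-3p was at 16.9 RPM with GFP (392 reads) and 26.5 RPM with QKI5 (174 reads), a ratio of 1.58 (1.31 to 1.89). Its log2 ratio was 0.65, and 0.08 with the same trimmed mean. All 4 chromosome 19 arms were thus higher with QKI5 as deposited, where 53.5% of all miRNAs with a read had a log2 ratio above 0, and their summed level was 5604 RPM against 3757 RPM, 1.49-fold higher (1.47 to 1.51). The summed log2 ratio of 0.58 was -0.00011 with the trimmed mean over all listed miRNAs.

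The arms of miR-99a on chromosome 21 lay the other way. miR-99a-5p (hsa-miR-99a-5p), a repressor of mTOR like its paralogs, was at 147 RPM with GFP (3423 reads) and 93.8 RPM with QKI5 (615 reads). It was 1.57-fold lower with QKI5 (1.44 to 1.71), a log2 ratio of -0.65 that stayed below 0 under all 8 other settings, between -1.22 and -0.49. miR-99a-3p was at 5.63 RPM with GFP (131 reads) and 2.29 RPM with QKI5 (15 reads), 2.46-fold lower (1.44 to 4.52). The interval of miR-99a-3p is wide because it rests on 15 reads in the QKI5 library, and its log2 ratio ran from -1.79 to -0.91 across the same settings. Both arms of the hairpin were therefore lower with QKI5, and in neither do the Poisson intervals of the libraries overlap.

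The remaining members differed little or had few reads. miR-125b-5p (hsa-miR-125b-5p), the arm known for its role in leukaemia, was at 71.6 RPM with GFP (1666 reads) and 83.9 RPM with QKI5 (550 reads). Its ratio of 1.17 (1.06 to 1.29) had no stable direction, since the log2 ratio of 0.23 became -0.0022 under quantile normalization and -0.35 with the trimmed mean over all listed miRNAs. miR-100-5p had 29 reads with GFP and 7 with QKI5, or 1.25 and 1.07 RPM, and the interval of its ratio, 0.317 to 2.0, includes 1. miR-125b-2-3p had 4 and 2 reads, and a difference was not detectable at this depth. The 5 arms other than those on chromosome 19 summed to 226 RPM with GFP and 181 RPM with QKI5, 1.24-fold lower with QKI5 (1.17 to 1.33), and miR-99a-5p makes up most of that sum.

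Among the 200 miRNAs with the highest mean level, 22% differed by at least 2-fold, with 30 higher and 14 lower with QKI5. That split moved to 18 and 20 under quantile normalization, 41 and 12 with scaling by the listed miRNAs' own sum, 23 and 18 when the 10 most abundant were left out of that sum, and 8 and 54 with the trimmed mean over all listed miRNAs. These scalings shift the median log2 ratio of the 200 by -0.06, 0.16, -0.11 and -0.58. Of the 9 arms, 4 were among the 200, and 0 of these 4 differed by 2-fold. Over the 400 most abundant, 1 of 6 members was past 2-fold, miR-125a-3p, against 28% of all 400. Over every miRNA with a read, 2 of 9 were, miR-125a-3p and miR-99a-3p, against 31.1% of 1995. At 1.5-fold, 2 of the 4 among the 200 were past the threshold, miR-99b-5p and miR-99a-5p, against 49.5% of the 200. With so few members these counts lie near the background, and nothing about the members is read from them. An exact binomial test of the reads, which compares these 2 libraries and not the conditions, called 7 of 9 members, all but miR-100-5p and miR-125b-2-3p, against 21.4% of all miRNAs with a read and 91% of the 200 most abundant (Benjamini-Hochberg adjustment). On the log2 scale the arms just outside the threshold were miR-99a-3p (-1.24) and miR-125a-3p (1.26), and the nearest inside it were miR-99b-3p (0.65) and miR-99a-5p (-0.65). The median log2 ratio was 0.64 over the 4 chromosome 19 arms and -0.20 over the 5 others, against 0.12 over all miRNAs with a read.

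**Figure D2:**
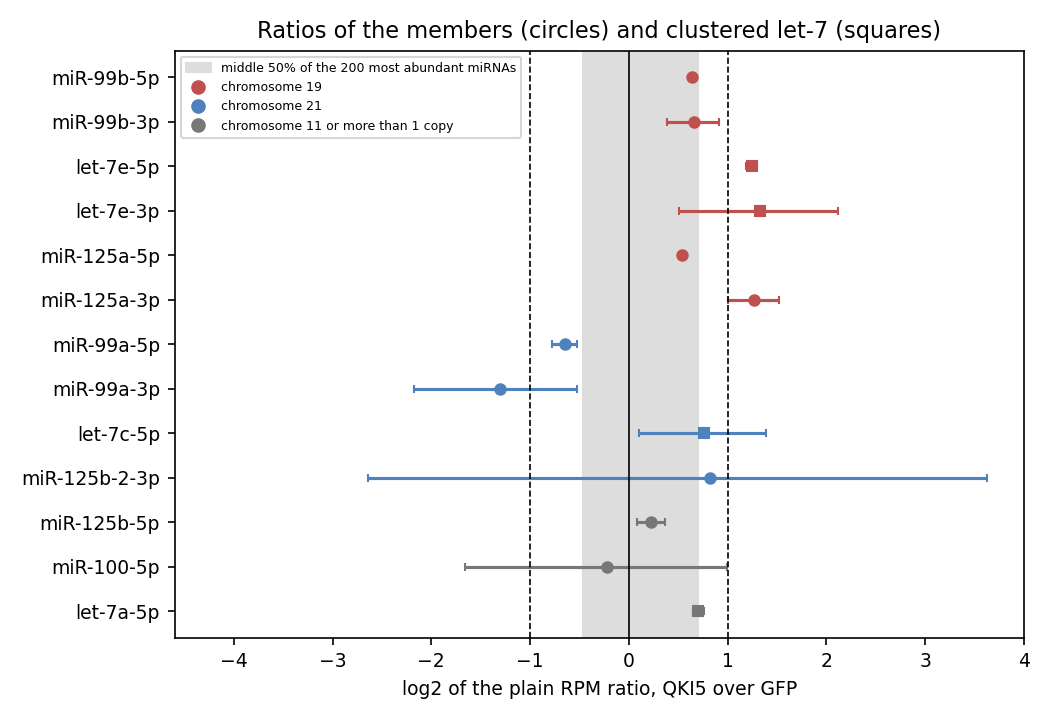
Log2 of the plain RPM ratio of QKI5 over GFP for the 9 members (circles), with exact conditional binomial 95% intervals. Squares are let-7e-5p, let-7e-3p, let-7c-5p and let-7a-5p of the same clusters. Not drawn are let-7c-3p and let-7a-2-3p, which had at most 2 reads in either library and log2 ratios below 0. Dashed lines are at 2-fold, and the middle 50% of the 200 most abundant miRNAs is in grey. As deposited, the chromosome 19 arms (red) lie above 0 and both miR-99a arms (blue) below it, while miR-125a-5p and miR-125b-5p cross 0 with a trimmed mean over all listed miRNAs.

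Ratios of arms within a library do not change when each library is scaled by a single factor, though quantile normalization, which rescales by rank, does move them. Within the miR-99/100 seed family, miR-99b-5p made up 89.1% of reads with GFP (88.7% to 89.4%) and 95.2% with QKI5 (94.8% to 95.6%). miR-99a-5p accordingly held 10.8% (10.5% to 11.2%) and 4.75% (4.39% to 5.13%). There were 8.21 reads of miR-99b-5p per read of miR-99a-5p with GFP and 20.0 with QKI5, a change of 2.44-fold (2.23 to 2.67). On the log2 scale this contrast was 1.29 as deposited, 1.42 under quantile normalization and 0.91 with the GC trend removed. The total of the seed family was 1357 RPM with GFP and 1976 RPM with QKI5, a ratio of 1.46 (1.43 to 1.49), and most of it was miR-99b-5p in both libraries.

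The miR-125 seed family was shifted far less. miR-125a-5p held 97.2% of its reads with GFP (97.1% to 97.4%) and 97.8% with QKI5 (97.6% to 97.9%). The reads of miR-125a-5p per read of miR-125b-5p were 35.2 and 43.7, a change of 1.24-fold (1.13 to 1.37). The family summed to 2590 RPM with GFP and 3748 RPM with QKI5, a ratio of 1.45 (1.43 to 1.47). The only other listed miRNA with the seed CCCUGAG among those matched to RefSeq, miR-4319, had 2 reads with GFP and 0 with QKI5. miR-99a-5p and miR-125b-5p, which 1 host transcript on chromosome 21 can supply, differed in their balance, with 2.05 reads of miR-99a-5p per read of miR-125b-5p with GFP and 1.12 with QKI5, a change of 1.84-fold (1.61 to 2.09). How much of miR-125b-5p came from chromosome 21 was not tested.

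Within the chromosome 19 cluster the balance of the 2 members differed little as deposited, while let-7e-5p took a larger share with QKI5. There were 0.480 reads of miR-99b-5p per read of miR-125a-5p with GFP and 0.513 with QKI5, a change of 1.07-fold (1.04 to 1.10). The direction of that change was opposite once the linear GC trend was removed. The log2 ratios of miR-99b-5p and miR-125a-5p were 0.64 and 0.54 as deposited, but 0.20 and 0.48 with the GC trend removed. let-7e-5p, from the hairpin between them, was at 282 RPM with GFP and 670 RPM with QKI5. Its log2 ratio was 1.25 as deposited and 0.67, inside the 2-fold line, with the trimmed mean over all listed miRNAs. Its share of the reads of the 3 main arms of the cluster was 7.04% with GFP (6.88% to 7.21%) and 10.8% with QKI5 (10.5% to 11.1%). Its reads per read of miR-99b-5p were 1.52-fold higher with QKI5 (1.46 to 1.59), and per read of miR-125a-5p 1.63-fold higher (1.56 to 1.70). With the GC trend removed these contrasts were larger, at 1.23 and 0.95 on the log2 scale against 0.61 and 0.70 as deposited, and under quantile normalization they were 0.76 and 0.94. let-7e-5p differs from let-7a-5p by 1 base, U9G with the base of let-7a-5p first, so reads could be shared between them. let-7a-5p, which other hairpins make too, was at 361 and 588 RPM. Its log2 ratio was 0.70 as deposited and 0.13 with that trimmed mean.

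On chromosome 21, let-7c-5p, the neighbour of miR-99a, had 67 reads with GFP (2.88 RPM) and 32 with QKI5 (4.88 RPM). As deposited, it lay on the other side of 1 from miR-99a-5p, with a ratio of 1.70 (1.08 to 2.62). The exact binomial test of the reads with Benjamini-Hochberg adjustment did not call let-7c-5p. The reads of let-7c-5p per read of miR-99a-5p changed 2.66-fold (1.67 to 4.15). let-7c-5p also differs by 1 base from let-7a-5p (A19G), which had far more reads. The 3p arms of let-7c and let-7a-2 had at most 2 reads in either library. Of the 6 let-7 arms of these clusters, 4 had a log2 ratio above 0, against 53.5% of all miRNAs with a read. As deposited, let-7e-5p (log2 ratio 1.25) and let-7e-3p (1.24) differed by at least 2-fold. These are 2 of 6, against 31.1% of all miRNAs with a read that differed by 2-fold either way, which is near the background. Both were higher with QKI5, as were 475 of the 1995 miRNAs with a read at that threshold. let-7e-3p rests on 34 reads with GFP and 24 with QKI5, and the interval of its ratio is 1.42 to 4.35.

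The balance of the arms of a hairpin was also compared, since both come from the same precursor. miR-125a-3p made up 0.526% of miR-125a reads with GFP (0.470% to 0.588%) and 0.867% with QKI5 (0.754% to 0.992%). There were thus 189 reads of the 5p arm per read of the 3p arm with GFP and 114 with QKI5, a change of 1.65-fold (1.38 to 1.98). For miR-99b the 3p share was 1.37% (1.24% to 1.52%) with GFP and 1.39% (1.19% to 1.61%) with QKI5. The balance changed by a ratio of 0.988, with an interval of 0.823 to 1.19 that includes 1. For miR-99a the 3p share was 3.69% (3.09% to 4.36%) and 2.38% (1.34% to 3.90%), and the interval of the change, 0.909 to 2.90, includes 1. miR-125a-3p has 59.1% G and C against 50% in its 5p arm, and the log2 contrast between them of 0.72 was 0.60 under quantile normalization and 0.47 with the GC trend removed.

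**Figure D3:**
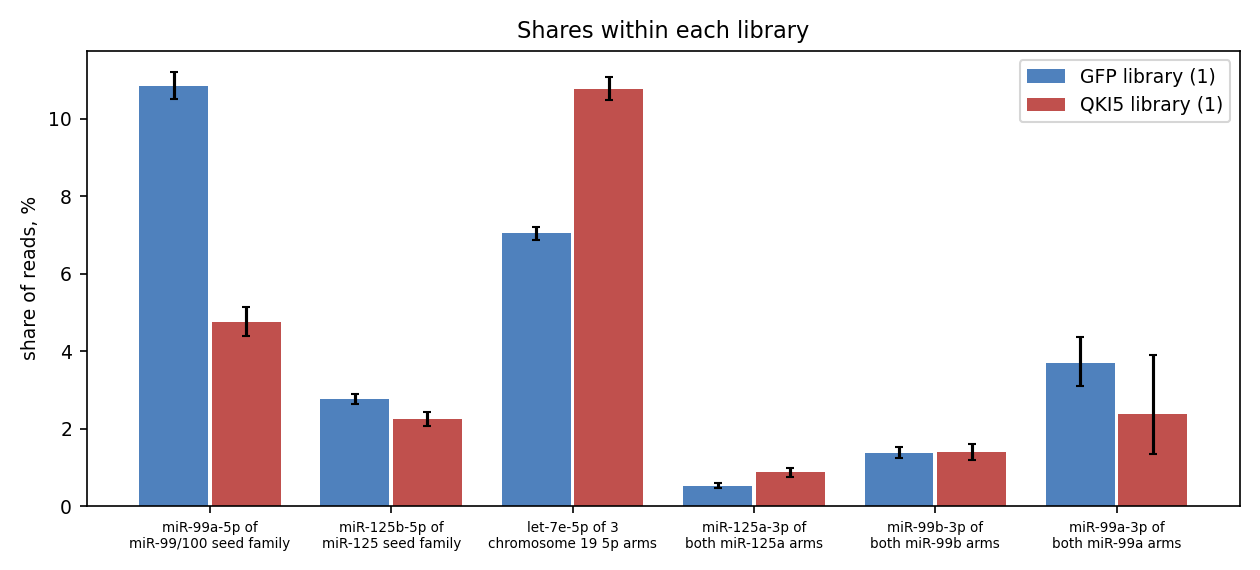
Shares of reads within each library, in percent, with exact binomial 95% intervals, for GFP (blue) and QKI5 (red), 1 library each. The share of miR-99a-5p in its seed family is 10.8% with GFP and 4.75% with QKI5, and the share of let-7e-5p in its cluster is 7.04% and 10.8%, while the 3p share of miR-99b is 1.37% and 1.39%.

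Other miRNAs had levels close to those of the leading members. Over the 2 libraries, the nearest of the 200 to miR-125a-5p in log2 level were miR-191-5p (2330 RPM with GFP, 3455 RPM with QKI5, distance 0.14) and miR-23a-3p (1973 and 3778 RPM, distance 0.35). The nearest to miR-99a-5p were miR-362-3p (144 and 107 RPM, distance 0.19) and miR-889-3p (122 and 91.7 RPM, distance 0.27). The miR-10 family, which shares the start of the seed with miR-99 and miR-100 and is made from the HOX loci, lay lower with QKI5 as deposited. miR-10a-5p was at 803 RPM with GFP and 639 RPM with QKI5, and miR-10b-5p at 28.1 and 16.8 RPM.

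**Figure D4:**
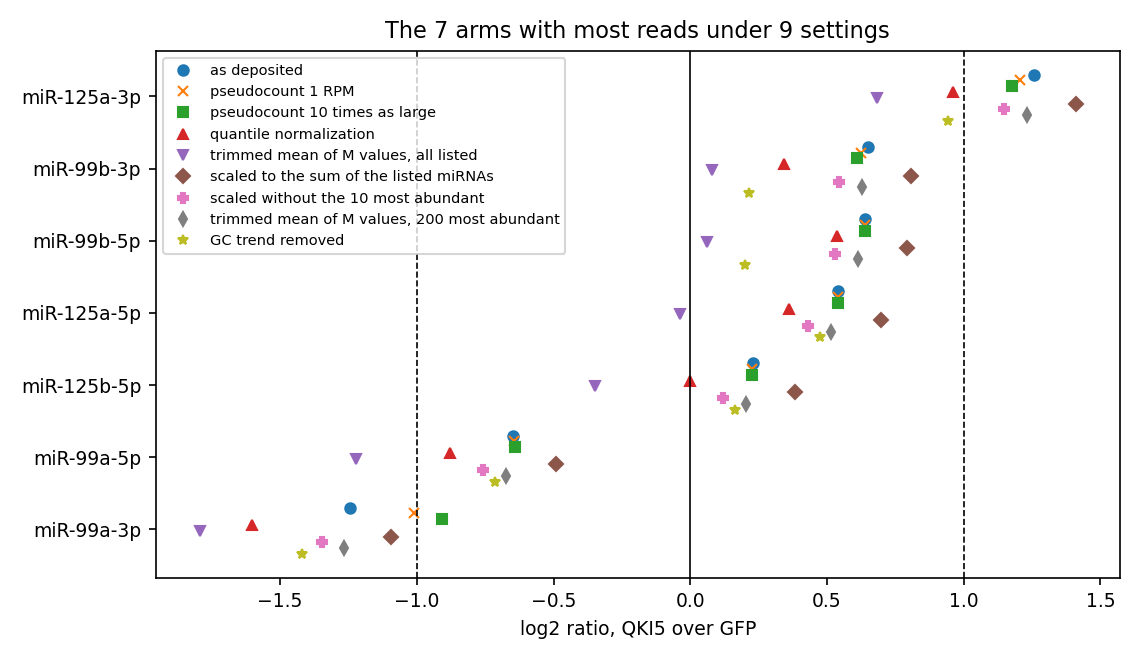
Log2 ratio of QKI5 over GFP for the 7 members with most reads, as deposited and under 8 other settings, with dashed lines at 2-fold. Both miR-99a arms stay below 0 and the miR-99b arms and miR-125a-3p above 0 throughout, while miR-125a-5p (-0.04) and miR-125b-5p (-0.35) lie below 0 with the trimmed mean over all listed miRNAs.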

How the data were processed

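Per the submitters' processing notes, Bowtie 0.12.3 and the build hg19 were used. The sources used here name no miRNA annotation and do not say whether strand was used. The values the authors deposited are RPM, although named RPKM: within 0.1 of a read, 100.0% of values above 0 in each column are whole multiples of 1 step (0.0430 RPM for GFP, 0.153 RPM for QKI5), which recovers the reads. The design had foreseen that reads might be recoverable. log2 ratios use a pseudocount of 0.153 RPM and understate those of miRNAs with few reads. Plain ratios carry exact conditional binomial 95% intervals, ratios of 2 arms carry exact conditional odds ratio intervals, and no molecular identifiers tell PCR copies from separate molecules. An exact binomial test of the reads with Benjamini-Hochberg adjustment, added after seeing the data, compares these 2 libraries and not the conditions. It called 426 of 1995 miRNAs with a read (21.4%) and 182 of the 200 most abundant (91%). With 1 library per group no dispersion could be estimated.

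The members, lists and settings were chosen with earlier results of these data known. The text names all members, the let-7 arms of the same clusters, miR-10a-5p and miR-10b-5p, the marker miRNAs, the members nearest to the threshold and the nearest miRNAs in level; miR-4319 was found by its seed. Sequences and positions are from RefSeq on GRCh38.p14, and host genes and gaps from GENCODE release 29. The deposited table has no positions. Alternatives covered pseudocount, scaling, level filter, threshold, arms and GC content. Tools were Python 3.11.15, numpy 2.4.6, scipy 1.17.1, pandas 2.3.3, matplotlib 3.10.9 and, for the trimmed mean of M values, edgeR 4.0.16 in R 4.3.3.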

Additional observations from a re-analysis of the deposited data

How the results depend on the processing

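The summed log2 ratio of the chromosome 19 arms, 0.58 as deposited, was 0.43 under quantile normalization, 0.73 scaled to the sum of the listed miRNAs, 0.47 when the 10 most abundant were left out, and -0.00011 with the trimmed mean of M values over all listed miRNAs. It was 0.39 with the GC trend removed and 0.55 with the trimmed mean over the 200 most abundant, both chosen after seeing the data. The sum of the other arms, -0.32, was -0.55, -0.16, -0.42 and -0.89 under the first 4 of these. The number of members past 2-fold among the 200 was 0 as deposited, against 22% of all 200. With the trimmed mean over all listed miRNAs it was 1 (miR-99a-5p), where 54 of the 200 were lower and 8 higher by 2-fold. The count was 1 over the 400 most abundant (28% of all 400) and 2 with no level filter (31.1% of all with a read). At 1.5-fold it was 2 (49.5% of the 200). The added exact binomial test of the reads called 7 of 9, against 21.4% of all miRNAs with a read and 91% of the 200. Quantile normalization put the share of miR-99b-5p with QKI5 at 95.6% and that of miR-125a-5p with GFP at 97.0%. Log2 ratios changed sign for miR-125a-5p (-0.036, trimmed mean over all listed miRNAs) and miR-125b-5p (-0.35 there, -0.0022 under quantile normalization). The cause of these changes was not tested. The GC trend rested on 358 of 400 miRNAs. No paired analysis was possible because each group has 1 library. Depth limits miR-100-5p, miR-125b-2-3p and miR-99a-3p, which had 7, 2 and 15 reads with QKI5.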

Other observations

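QKI proteins are known to bind RNA at the letters ACUAAC or ACUAAU, and the hairpins were searched for them on both strands. These letters overlap the shorter motif UAAC or UAAU, which each of them contains. On the transcript strand, ACUAAC or ACUAAU was in 24 of 1562 RefSeq hairpins (1.54%) and in none of MIR99A, MIR99B, MIR100, MIR125A, MIR125B1, MIRLET7A2, MIRLET7C and MIRLET7E. On either strand it was in 45 of 1562 (2.88%), among them MIR100 on the strand opposite to the transcript. UAAC or UAAU was in 391 hairpins on the transcript strand (25.03%) and in 592 on either strand (37.9%). Of those 8 it was on the transcript strand of MIR125A, MIR125B1, MIRLET7A2 and MIRLET7C and not of MIR99A, MIR99B, MIR100 and MIRLET7E. MIR125B2 was not searched. A match is a run of letters and not a binding site, and binding was not measured here.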
